A study of Mus musculus with 18 samples.

Results

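Accessible chromatin was described at 8 genes of the MAF, BACH and NRF2 system in primary bone marrow-derived macrophages (BMDMs), which are macrophages grown in culture from mouse bone marrow precursors. The genes were Maf, the small MAF genes Maff, Mafg and Mafk, the repressor genes Bach1 and Bach2, Nfe2l2 (which encodes NRF2) and Hmox1 (which encodes the heme-degrading enzyme heme oxygenase 1). They were 8 of 21938 protein-coding genes of GENCODE M21. For each of them all entries of 3 deposited lists were taken that overlapped the gene body or lay within 100 kb of the most upstream start site. This gave 247 of 82391 reference peaks, 254 of 84660 summits and 163 of 59617 extended regions on the mm10 build. No peak was shared between the windows of the 8 genes.

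The lists came from ATAC-seq, which reads open chromatin through the insertion of adapters by the Tn5 transposase. There were 18 libraries of wild type BMDMs from young adult male C57/BL6 mice, in 9 groups with 2 libraries each. All groups, the untreated one included, had received the vehicle DMSO for 1 h. Cells were then left untreated or stimulated with 10 ng/mL of the bacterial lipopolysaccharide LPS or of the cytokine IL-4 for 30 min, 1 h, 2 h or 4 h. The lists pool all libraries and hold no value per library. Therefore neither a comparison of LPS with IL-4 nor an error between replicates could be had, the depth of single libraries is unknown, and no difference below was tested. A reference peak can stem from any of the 9 groups.

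MAF, BACH and NRF2 proteins are transcription factors with a basic leucine zipper. Small MAF proteins carry no activation domain. They pair with NRF2 to activate, or with BACH1 and BACH2 to repress, genes that bear an antioxidant response element (ARE). The ARE is related to the MAF recognition element. NRF2 is kept low by the adaptor KEAP1 and accumulates in oxidative or electrophilic stress. Heme releases BACH1 from DNA, and Hmox1 is the textbook gene under this control. In macrophages c-MAF, the product of Maf, belongs to the factors of the mature cell. The core of an ARE is TGACNNNGC. It joins a site for the AP-1 factors (TGACTCA) in the letters GCTGAGTCA, which on the other strand read TGACTCAGC, so that each joined site is at the same time an ARE core and an AP-1 site.

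The joined sites at the 8 genes are shown first, since they carry the letters of both elements. A summit is the position of strongest signal inside a peak, and both strands were searched up to 100 bp to each side of it. Of the 254 summits 7 had a joined site (2.76%, against 1.93% of all summits), and 4 of these lay at Hmox1, 2 at Mafg and 1 at Maff. With a reach of 50 bp the direction turned, with 3 of 254 summits (1.18%) against 1.34% of all summits. The other 5 genes had none within 100 bp. With a reach of 200 bp 1 Bach1 summit had a joined site, and 8 of 254 summits did in total (3.15%, against 2.22% of all summits). At Hmox1 the summit 9646 bp upstream of the start site had 3 joined sites within chr8:75083875-75084075, and the summit 3898 bp upstream had 1 within chr8:75089623-75089823, together with a further ARE core. Both windows, are printed on the + strand, on which Hmox1 is transcribed. Capitals mark the joined sites and ARE cores.
Hmox1 -9646: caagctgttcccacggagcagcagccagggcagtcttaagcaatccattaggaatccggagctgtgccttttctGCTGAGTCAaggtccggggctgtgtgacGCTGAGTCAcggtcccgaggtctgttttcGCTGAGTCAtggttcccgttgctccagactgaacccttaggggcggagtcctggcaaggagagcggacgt
Hmox1 -3898: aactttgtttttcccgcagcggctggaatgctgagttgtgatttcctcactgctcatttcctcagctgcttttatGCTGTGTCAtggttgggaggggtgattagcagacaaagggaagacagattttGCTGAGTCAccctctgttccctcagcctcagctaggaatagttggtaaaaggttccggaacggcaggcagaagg

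The 3 joined sites of the first window ran in the same orientation, with starts 28 and 29 bp apart. The second window had its joined site 31 bp downstream of the summit and the other ARE core 21 bp upstream of it.

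The remaining joined sites stood alone at their summits and are printed in 61 bases each. They were at chr8:75043179-75043239 in an intron of Tom1 and chr8:75170637-75170697 outside coding genes (both in the Hmox1 window, + strand), at chr11:120630184-120630244 and chr11:120632947-120633007 in introns of Mafg (− strand, on which Mafg is transcribed) and at chr15:79435219-79435279 in an intron of Csnk1e in the Maff window (+ strand). The name of each gives the distance of its summit from the start site of the listed gene. Capitals mark the joined site.
Hmox1 -50462: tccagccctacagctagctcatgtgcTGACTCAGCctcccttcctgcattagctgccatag
Hmox1 +77093: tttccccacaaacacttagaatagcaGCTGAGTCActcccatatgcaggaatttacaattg
Mafg +573: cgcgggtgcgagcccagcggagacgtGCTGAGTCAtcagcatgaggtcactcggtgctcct
Mafg +3411: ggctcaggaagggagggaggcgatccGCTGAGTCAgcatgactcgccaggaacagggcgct
Maff +88687: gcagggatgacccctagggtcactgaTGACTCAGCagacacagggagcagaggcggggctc

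These 9 sites were set beside the full MAF recognition element of the TPA type (T-MARE), a palindrome of 13 bases that contains the letters of a joined site. Both Mafg sites, the Maff site and the Hmox1 site at −50462 matched 12 of its 13 bases. The Hmox1 site at −3898 matched 11, the 3 sites at −9646 matched 10, 9 and 9, and the site at +77093 matched 9, which is the least that a joined site can match. The full T-MARE was within 100 bp of 0 of 254 summits here (a count of 0 allows up to 1.18%, as 3 counts of 254) and of 0.0213% of all summits. The related element of the CRE type (C-MARE) was likewise found at 0 of 254 summits and at 0.00118% of all summits, which is 1 summit.

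**Figure D1:**
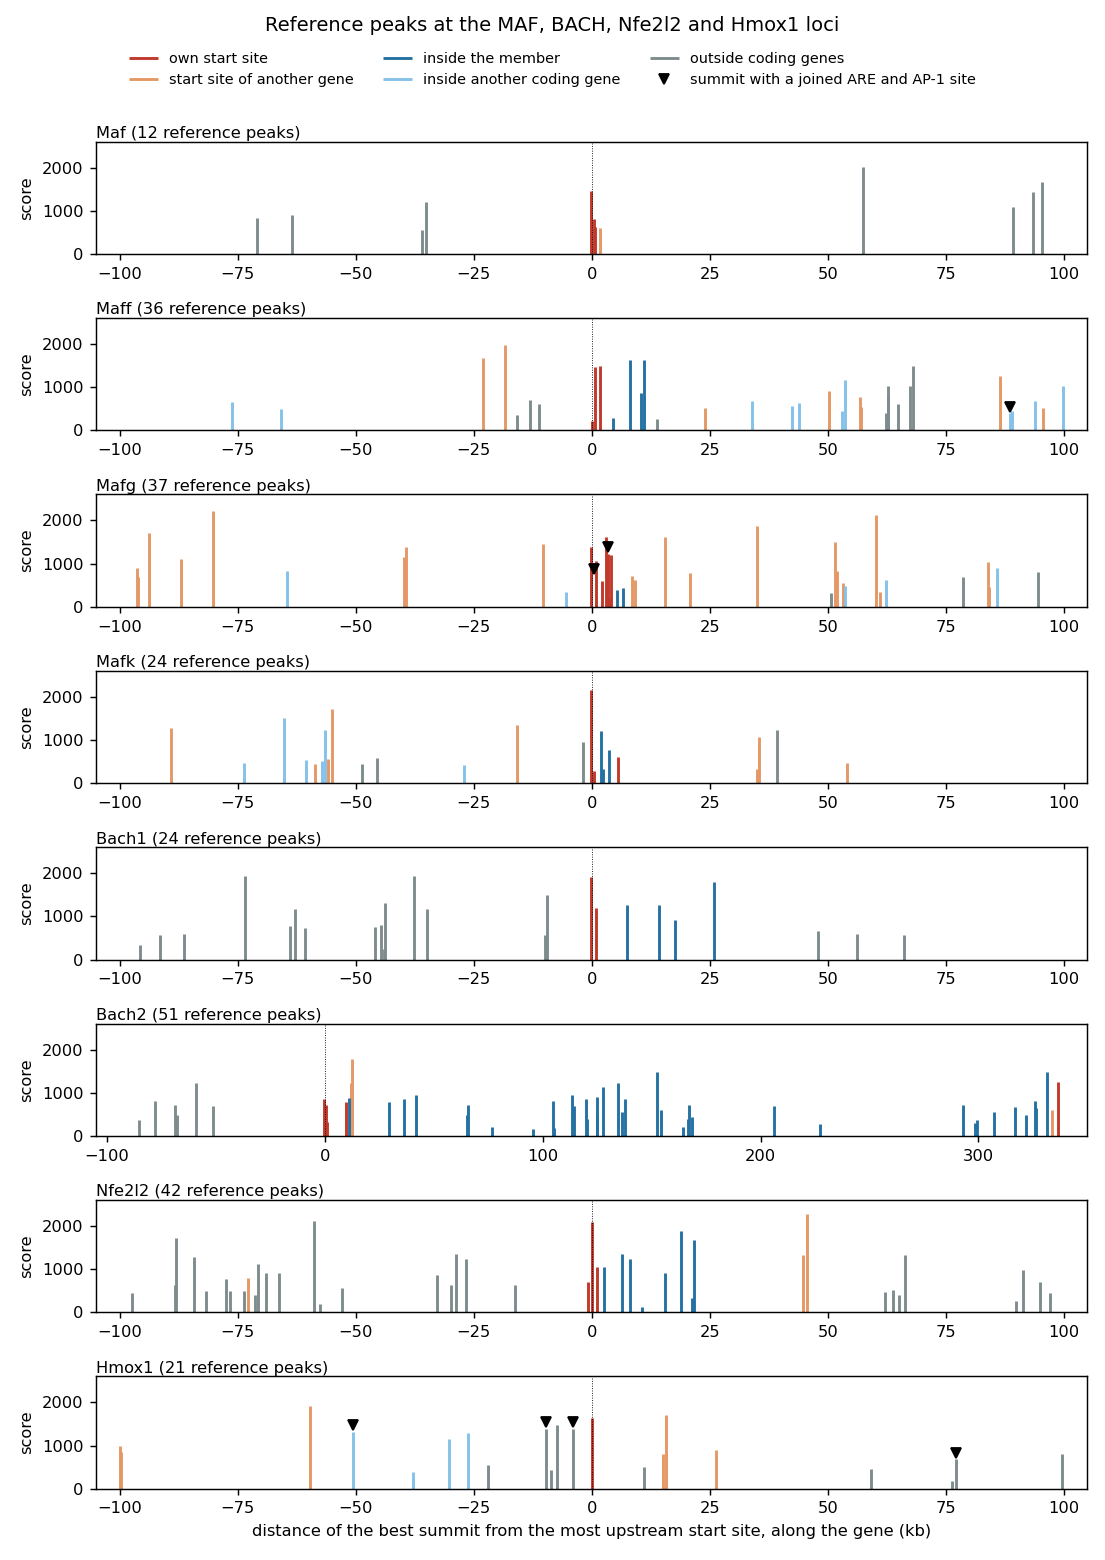
Reference peaks in the window of each of the 8 genes. Each vertical line is 1 peak at the distance of its best summit from the most upstream start site in kb (negative upstream, Bach2 on a longer axis), its height is the summit score (authors' value, scale not stated), colours give the place of the peak, and triangles mark the 7 summits with a joined ARE and AP-1 site, of which 4 lie in the Hmox1 window.

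The members of the system differed widely in the number of accessible sites. Nfe2l2 had 42 reference peaks, Mafg 37, Maff 36, Mafk 24, Bach1 24, Hmox1 21 and Maf 12, each in a window of 200 kb. Bach2 had 51, but its window was 447.3 kb long because the gene itself spans 347305 bp. The window of a coding gene had a median of 12 reference peaks (interquartile range 3 to 21). Thus 7 of the 8 genes were above the median and Maf was at it. Nfe2l2 had more peaks than 97.3% of coding genes, Mafg than 95.2%, Maff than 94.6%, Mafk and Bach1 than 80.2%, Hmox1 than 74.1% and Maf than 49.4%. Bach2 had more peaks than 99.3% of coding genes with its gene body counted, and more than 72.6% when only the 100 kb on each side were counted, where it had 20 peaks.

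**Figure D2:**
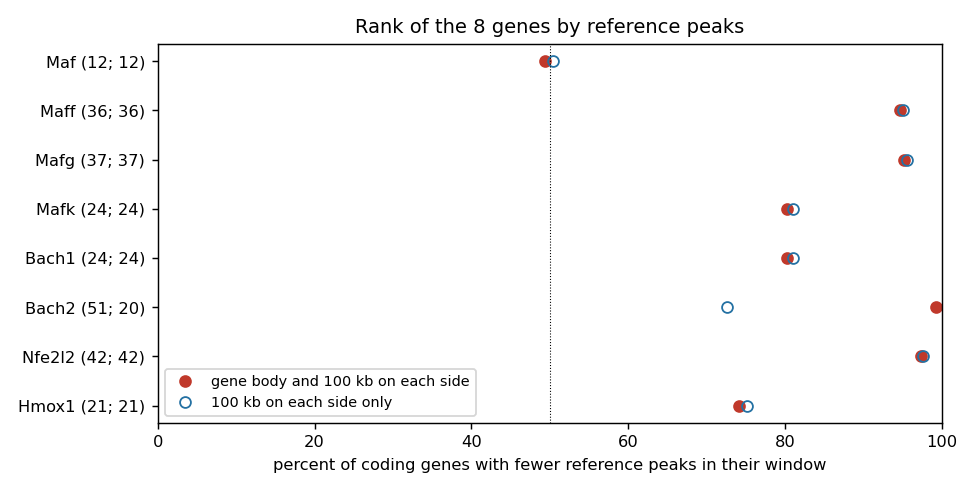
Share of 21938 coding genes with fewer reference peaks than each of the 8 genes, in percent. Filled points count the gene body and 100 kb on each side, open points the 100 kb only, and the numbers in parentheses give both counts of peaks; the points differ for Bach2, from 99.3% to 72.6%.

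Neighbouring genes took a part of these peaks. The start sites of 19 other coding genes lay in the Mafg window, 5 each in those of Maff and Mafk, 3 in that of Hmox1, 1 in that of Nfe2l2 and none in those of Maf, Bach1 and Bach2. Of the 247 peaks 127 (51.4%) had one of the 8 genes as the nearest coding start site. This held for 12 of 12 peaks at Maf and 51 of 51 at Bach2, for 20 of 24 at Bach1 and 17 of 42 at Nfe2l2. It held for 7 of 36 at Maff, 8 of 37 at Mafg, 7 of 24 at Mafk and 5 of 21 at Hmox1. By place, 27 peaks were at a start site of their own gene, 49 at a start site of another gene of any type, 58 elsewhere inside their gene, 26 inside another coding gene and 87 outside coding genes. Of the 58 peaks inside a gene, 37 belonged to Bach2.

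Summit scores are the values that the authors deposited, without a stated scale, and rank summits within the list. The 254 summits scored between 121 and 2284 with a median of 791 (interquartile range 517.2 to 1233). All 84660 summits scored between 102 and 2781 with a median of 737 (486 to 1153). Within 1000 bp of a start site the median was 1048 at the 8 genes (n = 78 summits) and 990 in the whole list. Farther away it was 695 (n = 176) and 664. The medians of single genes ran from 603 at Mafk, 675 at Maff and 706 at Bach2 to 828.5 at Mafg, 857 at Bach1, 867 at Nfe2l2, 934 at Hmox1 and 991 at Maf. The quartile ranges of all 8 overlapped, and Maf, with the fewest summits, had the highest median. A summit lay on a base that the genome marks as repeat in 28 of 254 cases (11%, 95% Wilson interval 7.74 to 15.5) and in 12.6% of all summits.

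**Figure D3:**
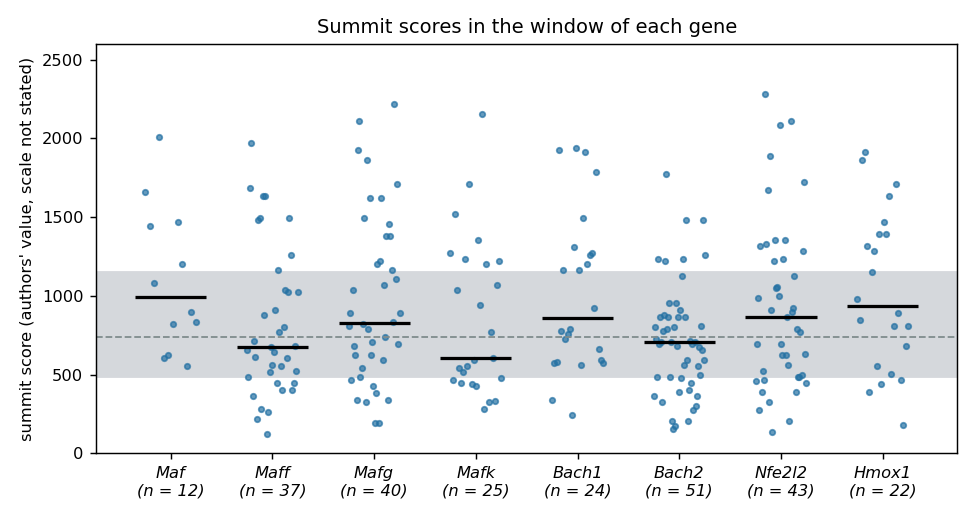
Score of each summit in the window of each gene (points, spread sideways in genomic order for legibility; authors' value, scale not stated) with the median of the gene as a black bar. The grey band is the interquartile range of all 84660 summits (486 to 1153) and the dashed line their median (737), and the points of every gene lie on both sides of that line.

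Each of the 8 genes had a start site peak, that is a reference peak no more than 1000 bp away from any of its start sites, as had 56.5% of all coding genes. The best start site score of a gene ran from 1260 to 2153, with a median of 1626 over the 8 genes and 1456 over the 12402 coding genes with such a peak. A peak covered the most upstream start site of 7 genes, and at Bach2 the nearest summit was 152 bp upstream. Macrophage marker genes had a start site peak in 8 of 8 cases, markers of T cells in 0 of 3, of B cells in 1 of 3 (Ms4a1), of neutrophils in 1 of 3 (S100a8, score 623) and of fibroblasts in 2 of 3 (Col1a1 with 613 and Pdgfra with 402). The part of other cells in the lists was not tested.

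The start site windows are printed for 6 genes because their motifs differed. They are centred on the start site summit nearest to the most upstream start site, on the strand of the gene. Their positions are chr8:115707812-115708012 (Maf, − strand), chr15:79346491-79346691 (Maff, +), chr5:139791349-139791549 (Mafk, +), chr16:87698794-87698994 (Bach1, +), chr4:32238552-32238752 (Bach2, +) and chr2:75704483-75704683 (Nfe2l2, −). Capitals mark CRE sites (TGACGTCA, bound by factors of the CREB and ATF families), ARE cores and the GC-rich letters GGGGCGGGG of SP and KLF factors.
Maf -118: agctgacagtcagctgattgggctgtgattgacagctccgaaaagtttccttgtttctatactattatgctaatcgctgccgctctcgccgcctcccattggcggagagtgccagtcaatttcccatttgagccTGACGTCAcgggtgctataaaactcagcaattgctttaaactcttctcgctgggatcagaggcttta
Maff -30: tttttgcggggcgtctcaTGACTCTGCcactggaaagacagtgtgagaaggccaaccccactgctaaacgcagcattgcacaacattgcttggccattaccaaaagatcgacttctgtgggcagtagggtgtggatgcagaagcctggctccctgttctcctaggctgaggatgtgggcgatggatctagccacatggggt
Mafk -64: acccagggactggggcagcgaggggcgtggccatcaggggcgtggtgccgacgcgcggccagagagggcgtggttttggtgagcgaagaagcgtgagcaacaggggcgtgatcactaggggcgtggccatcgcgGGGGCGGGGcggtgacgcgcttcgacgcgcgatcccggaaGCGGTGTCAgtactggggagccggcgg
Bach1 -51: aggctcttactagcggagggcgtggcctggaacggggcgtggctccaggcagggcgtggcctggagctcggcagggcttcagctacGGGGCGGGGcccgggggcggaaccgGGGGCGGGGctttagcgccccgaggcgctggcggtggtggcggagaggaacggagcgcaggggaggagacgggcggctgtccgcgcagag
Bach2 -152: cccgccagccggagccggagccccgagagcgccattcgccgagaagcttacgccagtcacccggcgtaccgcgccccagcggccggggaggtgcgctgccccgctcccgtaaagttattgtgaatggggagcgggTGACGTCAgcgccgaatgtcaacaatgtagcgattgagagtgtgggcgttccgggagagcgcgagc
Nfe2l2 +58: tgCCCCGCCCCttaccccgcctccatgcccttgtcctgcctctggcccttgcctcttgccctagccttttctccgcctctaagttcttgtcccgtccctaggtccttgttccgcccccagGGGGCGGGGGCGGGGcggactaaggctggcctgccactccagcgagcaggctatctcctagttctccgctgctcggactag

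A CRE site was present at Maf and Bach2, 1 ARE core at Maff, 1 ARE core and 1 SP/KLF site at Mafk, 2 SP/KLF sites at Bach1 and 3, a pair of which overlap, at Nfe2l2. Of all summits within 1000 bp of a start site, 11.6% had an ARE core, 2.02% a CRE site and 12.7% an SP/KLF site. In the corresponding windows of Mafg (summit at −52, score 1381) and Hmox1 (summit at −31, score 1632) none of the searched letters occurred. The window and the peak do not coincide. The start site peak of Mafg held 1 ARE core outside this window, and the ARE core printed for Maff lay outside its start site peak. A window without a match says nothing about whether a factor binds there.

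Maf (ENSMUSG00000055435, chr8:115682942-115707794, − strand) encodes c-MAF, a large MAF factor with an activation domain of its own. Its window had 12 peaks in 8 extended regions and was the sparsest. The start site summit at −118 scored 1468, and 2 further start site peaks inside the transcript scored 823 (+552) and 623 (+794). The highest summits lay at a distance, with scores of 2008 at +57398, downstream of the gene, and 1657 at +95474. A score of 2008 exceeded 98.1% of all summits. A group of 3 peaks between +89229 and +95474 had 1082, 1443 and 1657, and 2 of the 3 had an ARE core. ARE cores were within 100 bp of 4 of 12 summits (33.3%, 95% Wilson interval 13.8 to 60.9), against 12.2% of all summits. The other 2 were at −35863 (score 554) and in the coding exon at +1840 (score 603). AP-1 sites were near 3 of 12 summits (25%, interval 8.89 to 53.2), against 15.9% of all summits.

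Maff, Mafg and Mafk encode the small MAF proteins, which are interchangeable partners of NRF2 and the BACH factors in many settings. At Maff (ENSMUSG00000042622, chr15:79346621-79359076, + strand) the peak over the most upstream start site was weak, with a score of 219, which exceeded 1.96% of all summits. The 2 other start site peaks, at +789 and +1671, scored 1480 and 1493. Inside the gene 2 summits had 1632, at +8206 in an intron and at +11169 in the coding exon, and each of them had an ARE core. The highest summits of the window, 1969 at −18281 and 1683 at −23027, lay in the neighbour Pla2g6. ARE cores were near 8 of 37 summits (21.6%, interval 11.4 to 37.2), which includes the 12.2% of the whole list, and within 50 bp the share lay below it (2.7% against 6.81%). Within 200 bp it was 32.4% (interval 19.6 to 48.5), against 18.7%. The joined site at +88687 belonged to a low summit (402).

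Mafg (ENSMUSG00000051510, chr11:120625117-120633600, − strand) lay in a gene-dense stretch, and 28 of its 40 summits were within 1000 bp of some start site. Of the 10 reference peaks in the gene, 9 lay in a single extended region of 8340 bp with 11 summits (chr11:120626148-120634487), and 0.0822% of all extended regions had as many peaks or more. The other peak only overlapped the end of the gene and lay in a second region. Its summit (score 706) was in an exon of Sirt7, 3 bp from a start site of Sirt7. The 7 start site peaks had best scores between 196 and 1619. The 2 joined sites were in introns of this region, at the summit at +3411 with a score of 1224 and at the summit at +573 with 737. A further ARE core of the gene was in the coding exon at +4055 (score 1200). The top 3 summits of the window were 2219 at −80232, 2114 at +60298 and 1929 at +60585, the last in an exon of P4hb, and all 3 were far from Mafg.

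Mafk (ENSMUSG00000018143, chr5:139791513-139802653, + strand) had the highest start site score of the 8 genes, 2153 at −64, which exceeded 99.3% of all summits. Its further start site peaks scored 282 (+491) and 603 (+5565). The next summits were 1708 at −55088, 89 bp from a start site of Micall2, and 1518 at −65129, in an intron of Micall2. The start site lay in an extended region with 6 peaks, a number reached by 0.478% of all extended regions. ARE cores were near 6 of 25 summits (24%, interval 11.5 to 43.4), which includes the 12.2% of the whole list, and within 50 bp near 5 of 25 (20%, interval 8.86 to 39.1), against 6.81%. Of the 6 summits with an ARE core within 100 bp, 4 were in the gene or at its start, at −64, +2073 (score 1200), +3580 (769) and +5565 (603). Thus 4 ARE cores within 100 bp of a Mafk summit were in or at the gene, as were 3 each at Maff and Mafg.

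BACH1 and BACH2 repress the genes that NRF2 activates. BACH1 is found in most cells and is released from DNA by heme, while BACH2 is best known from lymphocytes. Bach1 (ENSMUSG00000025612, chr16:87698945-87733346, + strand) had no other coding start site in its window and 18 of its 24 peaks outside coding genes. The top 3 summits had nearly the same score, 1942 at −37652, 1929 at −73441 and 1916 at the start site (−51), and an intronic summit at +26008 had 1786. AP-1 sites were near 9 of 24 Bach1 summits (37.5%, interval 21.2 to 57.3), against 15.9% of all summits, and these included the summits at −73441, −9443 (score 1493), +14258 (1272) and +26008. An ARE core was near 1 of 24 summits (4.17%, interval 0.739 to 20.2), the one with the highest score at −37652.

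Bach2 (ENSMUSG00000040270, chr4:32238804-32586108, + strand) had 44 of its 51 peaks in the gene body. The start site summit at −152 scored 867. The highest start site score, 1260, was at +336569 in a coding exon, where a short transcript starts. The top 3 summits were all intronic, with 1773 at +12390 and 1480 at both +152632 and +331378. The peak at +12390 was also at a start site of another gene. AP-1 sites were near 11 of 51 summits (21.6%, interval 12.5 to 34.6) and ARE cores near 2 of 51 (3.92%, interval 1.08 to 13.2). Both BACH genes thus had a lower ARE share than the whole list, within its counting error, and both had AP-1 shares above that of the whole list, with an interval that lay above it at Bach1 and included it at Bach2. Within 50 bp the AP-1 share of Bach2 lay below that of the whole list (9.8% against 11.6%). Only 2 of the 24 Bach1 summits and 7 of the 51 Bach2 summits were within 1000 bp of a start site. Over 1000 bp from a start site the AP-1 share of all summits was 19.4%. The interval of Bach1 lay above that share too, and that of Bach2 included it. The genes were not tested against each other.

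Nfe2l2 (ENSMUSG00000015839, chr2:75675513-75704641, − strand) had a start site summit of 2087 at +58, and start site peaks of 1059 and 695 beside it. The highest summit of the window and of all 8 genes, 2284 at +45504, was at the start of Hnrnpa3, and the second, 2114 at −58814, was outside coding genes. Upstream of the start site there were 22 peaks, of which most lay outside coding genes, as did 28 of the 42 peaks of the window. Introns of Nfe2l2 held 8 more, with scores up to 1890. ARE cores were near 5 of 43 summits (11.6%, interval 5.07 to 24.5), close to the 12.2% of the whole list, and no joined site was among them. Within the gene, an ARE core was within 100 bp of the summit at +6400 (score 1357). The peaks with best summits at +58, +1122 and +21567 (score 1670) also held 1 ARE core each, farther than 100 bp from a summit.

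Hmox1 (ENSMUSG00000005413, chr8:75093621-75100589, + strand) had 1 start site peak, chr8:75093383-75093814, with a summit of 1632 at −31. It was the only reference peak in the gene body. The top 3 summits of the window belonged to the neighbours. They were 1916 at −59581 and 1864 at −59984 at the start of Tom1, and 1708 at +15835 at the start of Mcm5. Within 10 kb upstream of the start site, between Tom1 and Hmox1, lay a group of 4 peaks. Peaks at −9646 (chr8:75083828-75084187, 360 bp), −8535 and −7379 shared an extended region of 4052 bp and had scores of 1394, 439 and 1468. The peak at −3898 (chr8:75089569-75089917, 349 bp) stood by itself and had 1394. All 4 of these peaks had an ARE core within 100 bp of the summit, and the first and the last had joined sites, printed above. The summits at −50462 (score 1320) and +77093 (685) had 1 joined site each.

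**Figure D4:**
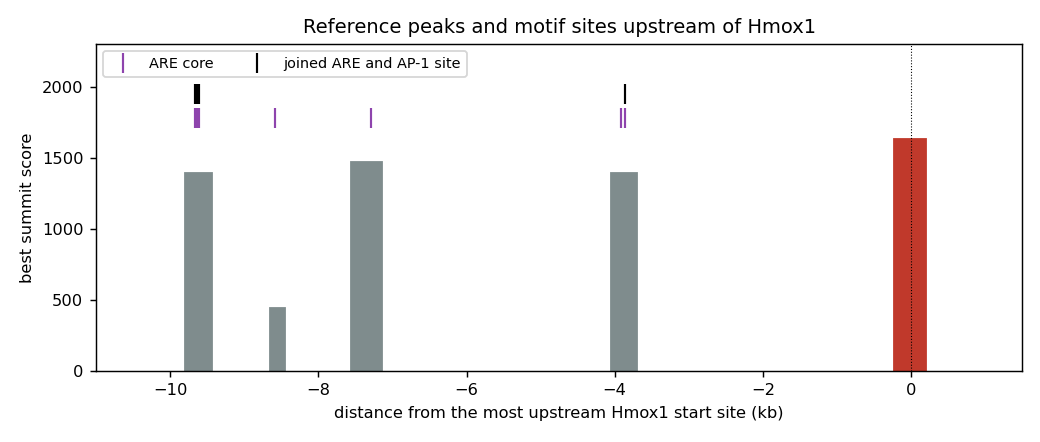
Reference peaks from 11 kb upstream to the start site of Hmox1. Bars span each peak (x axis, distance from the most upstream start site in kb) and reach the best summit score (y axis, authors' value), ticks above mark ARE cores and joined sites within 100 bp of a summit; the 4 upstream peaks have ticks and the start site peak has none.

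In the Hmox1 window 4 of 22 summits had a joined site (18.2%, interval 7.31 to 38.5), against 1.93% of all summits. Within 50 bp it was 2 of 22 (9.09%, interval 2.53 to 27.8), against 1.34%. Hmox1 was one of 23 of 21938 coding genes (0.105%) with 4 or more such summits in the window. The other 22 included its neighbour Mcm5, whose window overlaps, and the highest number was 7. At least 1 was found for 20.9% of coding genes, and for 3 of the 8 genes described here. The summit at −9646 was among 11 of 84660 summits (0.013%) with 3 or more joined sites. Of those 11 it had the second highest score after 1657 at a summit nearest to Eya1, and its window was one of 4 of the 11 without a base marked as repeat, while 3 of the 11 were repeat for more than 50% of their bases. ARE cores of any kind were near 6 of 22 Hmox1 summits (27.3%, interval 13.2 to 48.2). PU.1 sites (GAGGAAGT), for the factor that defines macrophage enhancers, were near 0 of 22 (a count of 0 allows up to 13.6%, as 3 counts of 22), against 9.08% of all summits.

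**Figure D5:**
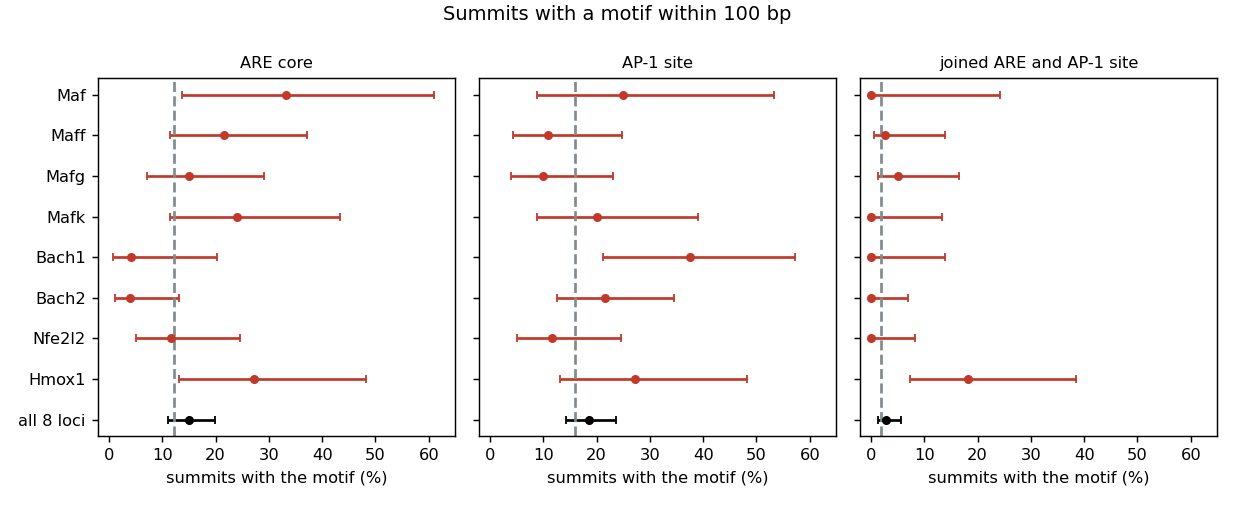
Share of summits with an ARE core, an AP-1 site or a joined site within 100 bp, in percent, for each gene (red) and for all 8 (black), with 95% Wilson intervals that cover counting error only. Dashed lines are the shares of all summits (12.2%, 15.9% and 1.93%); the interval lies above the line for ARE cores at Maf and Hmox1, AP-1 sites at Bach1 and joined sites at Hmox1, with no adjustment for the number of intervals.

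Over the 8 genes together the motif shares within 100 bp were close to those of the whole list. ARE cores were near 38 of 254 summits (15%, interval 11.1 to 19.9), AP-1 sites near 47 (18.5%, interval 14.2 to 23.7, against 15.9%) and joined sites near 7 (2.76%, interval 1.34 to 5.58). Without Hmox1 the share with a joined site was 1.29%. CRE sites were near 4 summits (1.57%, against 0.938%), of which those of Maf, Maff and Bach2 were at their start sites and that in the Hmox1 window at the start of Mcm5. Among summits within 1000 bp of a start site this was 4 of 78 (5.13%, interval 2.01 to 12.5), against 2.02% of all such summits. PU.1 sites were near 23 (9.06%, against 9.08%), SP/KLF sites near 10 (3.94%, against 4.46%) and NF-kB sites, of the factor that LPS activates, near 14 (5.51%, against 5.55%). Each of these intervals over the 8 genes included the share of the whole list. Within 200 bp the ARE share was 24% (interval 19.2 to 29.6), against 18.7% of all summits, which lay just below that interval, and summits of one window are not independent of each other. At single genes the ARE share ranged from 3.92% at Bach2 to 33.3% at Maf and the AP-1 share from 10% at Mafg to 37.5% at Bach1. Of all summits, 7.65% had an AP-1 site within 1000 bp of a start site and 19.4% farther away. At Mafg 28 of 40 summits were within 1000 bp of a start site, at Bach1 2 of 24. Within 50 bp the intervals of the ARE share at Maf (16.7%, 4.7 to 44.8) and Hmox1 (9.09%, 2.53 to 27.8) included the 6.81% of the whole list, while that of the AP-1 share at Bach1 (29.2%, 14.9 to 49.2) lay above its 11.6%.

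Genes of the same families and the adaptors of NRF2 had a start site peak in 7 of 9 cases (77.8%, interval 45.3 to 93.7), which includes the 56.5% of all coding genes. The large MAF gene Mafa had a best start site score of 1982, and Nfe2l1, a relative of Nfe2l2, had 2100. Keap1, which binds NRF2, had 923, and Cul3 and Rbx1, which complete its ubiquitin ligase, had 1969 and 2245. Nrl, of the retina, and Nfe2l3 lacked a start site peak. Cul3 had the fewest reference peaks in its window (9) and Nfe2, of the erythroid lineage, the most (47). A joined site was in the window of 1 of these 9 genes, Nfe2, against 20.9% of all coding genes.

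Of 20 target genes of NRF2 from textbook knowledge 19 had a start site peak (95%, interval 76.4 to 99.1, against 56.5% of all coding genes), with best scores between 780 at Slc40a1, the iron exporter ferroportin, and 2297 at Blvrb, a biliverdin reductase. Me1, malic enzyme, lacked one and had the fewest peaks (6), while Fth1, the ferritin heavy chain, had the most (51). A joined site was in the window of 11 of the 20, against 20.9% of all coding genes, but also in the window of 8 of the 20 cell type marker genes. The windows of the target genes had a median of 20.5 reference peaks, against 12 for all coding genes, and the part of this in the count was not tested. No farther than 10000 bp from the start site 2.66% of all coding genes had a joined site. So had 2 of the 20 marker genes, both among the 8 macrophage markers, and 7 of the 20 target genes. The nearest were at the start site of Prdx1, a peroxiredoxin (+9, score 1212), at −1119 of Ftl1, the ferritin light chain (1406), at −1331 of Sqstm1, which encodes the autophagy receptor p62 (1345), and at −3850 of Gclc, the catalytic subunit of glutathione synthesis (1657). These 4 genes, and Mafa, Nfe2l1, Keap1, Rbx1, Slc40a1, Blvrb, Ms4a1, S100a8, Col1a1, Pdgfra and Eya1, were named after their values were seen. The lists are described by counts only, since members and lists had been chosen with results of these data known.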

How the data were processed

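ATAC-seq had been carried out by the authors on 18 BMDM libraries. Reads had been trimmed (Trimmomatic 0.39), aligned to mm10, filtered (SAMtools 1.9) and used for peak calling (MACS2 2.2.6), with versions from the submitters' processing notes. No shift of reads to the Tn5 cut site is named in the methods, and duplicates were kept, which can move summits and add PCR copies to the signal. The 3 deposited BED lists hold reference peaks and extended regions as positions only. Summits carry a score deposited by the authors. Its scale is not stated, and it was used to rank and describe only. There were 0 columns with values of a library and 0 columns of other samples, so that depth and precision per library are unknown.

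Entries were counted in the gene body and 100000 bp around the most upstream start site (GENCODE M21), in Python 3.11.15 with pysam 0.24.0 on GRCm38.p6, whose primary chromosomes share mm10 coordinates. Positions count from 1. A start site peak overlaps 1000 bp around any start site. Exact letters of 9 motifs were searched, and the search was tested on simulated data. Wilson intervals (95%) treat summits as independent. The members and lists were chosen with earlier results of these data known. Named were the 8 genes with their start site peaks and 3 best summits, joined sites, and of the lists the genes without a start site peak and with the fewest and most peaks. Other genes of the lists, and neighbours of the 8 genes, were named after their values were seen. Alternatives comprised other windows, start site and summit distances, no gene bodies, the best summit per peak, summits at or above the median score and summits over 1000 bp from a start site. The comparison of stimuli was not made. Of the listed genes, 1 entered the list counts but its own values are not reported here.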

Additional observations from a re-analysis of the deposited data

How the results depend on the processing

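No paired analysis was possible because the lists carry no value per library, so replicates could be neither paired nor left out. Within 50000 bp the 8 genes had 146 reference peaks, 150 summits and 95 extended regions, within 20000 bp 111, 115 and 66, and at or above the median score 131, 136 and 102, by construction fewer. The median score was 695 over 1000 bp from a start site. The ARE share was 7.087% within 50 bp and 24.02% within 200 bp (all summits 6.81% and 18.7%), and the AP-1 share 12.99% within 50 bp (all summits 11.6%). The joined share, with alternatives chosen after seeing the data, was 1.181% within 50 bp, below the 1.34% of all summits, and 1.293% without Hmox1. Of the other alternatives, 37 moved the value by less than its error or 1.5 times, and start site peaks stayed at 8 of 8 genes. With only the most upstream start site, 16 of the 20 target genes had a start site peak, in place of 19. The median rank stayed between 80.16 and 87.54.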
